A study of Oryza sativa with 4 samples.

Results

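Alternative oxidase is a diiron enzyme of the inner mitochondrial membrane of plants. It takes electrons from the ubiquinol pool and passes them straight to oxygen, so that the electrons bypass complexes III and IV (the cytochrome pathway) and the proton pumping of both. In plants it is known for cyanide-resistant respiration and for holding down the formation of reactive oxygen species when the cytochrome pathway is restricted, and some of its genes are widely used as markers of mitochondrial stress. The transcripts of 4 rice alternative oxidase genes, Os04t0600200, Os04t0600300, Os02t0318100 and Os02t0700400, were followed through a drought time course of leaves. They were taken by identifier from the 37869 loci (44553 transcripts) of the gene table, each with 1 transcript. The rule that finds them reads no measured value, but the family was proposed with earlier results of these data known.

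The leaves came from wild-type rice (Oryza sativa cv. Ilmi, spelled Illmi in the labels) grown in soil pots in a greenhouse and 5 weeks old, with the soil water set near 75% when watering stopped. There were 4 strand-specific RNA-seq libraries, a well-watered control (C) and leaves after 1, 2 and 3 d of withheld water, with 1 library per condition. According to the methods of the study, each library was made from the pooled leaves of several plants and the control was taken before the water was withheld, so drought and the day of sampling cannot be told apart. With no replicates there was no test across samples, and each interval given here is an exact 95% interval that covers counting error only.

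The libraries held 56727328 (C), 52626188 (1 d), 60322263 (2 d) and 56909968 (3 d) reads mapped to genes. Levels are given as counts per 1000000 of these (CPM), and changes as the log2 ratio of CPM, called up- or down-regulated once the change reached 2-fold (1 or −1 on the log2 scale). The median log2 ratio over loci with at least 10 reads was 0.03 at 1 d, −0.41 at 2 d and −0.86 at 3 d. The labelled tissue was checked by its markers. A list of 25 photosynthesis loci, mostly chlorophyll a/b-binding proteins and Rubisco small subunits, was used to mark green leaf cells. It does not cover all genes of photosynthesis. These loci held 2.90% of the control reads and 2.93%, 0.538% and 0.103% at 1, 2 and 3 d. Of 57 seed storage loci, 32 to 38 had no reads in a given library. The list held 0.0177% to 0.0238% of reads, and 0.00566% to 0.00706% without Os04t0537900, a vacuolar processing enzyme of glutelin. Single seed loci nevertheless rose beside the members, 7 of 16 measured being up-regulated and 4 down-regulated at 3 d (median log2 ratio 1.00), among them the glutelin family gene Os03t0188500 with 97, 31, 670 and 1407 reads. Among all loci with at least 10 reads, 20.8% were up-regulated and 47.4% down-regulated at 3 d in CPM. Some of the seed rises rest on very few control reads, 1 of them on 1 read in C and 18 at 3 d. The words for pollen genes found 56 loci with 0.196%, 0.250%, 0.291% and 0.154% of reads in C and at 1, 2 and 3 d. At 3 d 11 of 36 measured were up- and 10 down-regulated, beside the same shares of all loci. Most of that share came from Os11t0167800, annotated as similar to a pollen-specific, desiccation-associated protein, with 76609 of the list's 110985 control reads, and without it the share lay between 0.0606% and 0.0717%. The stress markers of the study moved from 49.9 to 4176 CPM for Dip1, a dehydration-inducible gene, and from 2861 to 27.4 CPM for RbcS1, a Rubisco small subunit, between C and 3 d. In such bulk leaf samples, fewer cells of a type and less RNA per cell cannot be told apart, and the part of the falling photosynthetic share and of the rising seed loci in the results below was not tested.

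Read by their annotation, Os04t0600200, Os04t0600300 and Os02t0700400 were each described as a diiron-carboxylate protein of cyanide-resistant mitochondrial respiration, and Os02t0318100 only as similar to an alternative oxidase. All 4 carried the gene ontology terms for respiratory gaseous exchange and the mitochondrial envelope. The identifiers place Os04t0600200 and Os04t0600300 next to each other on chromosome 4, as consecutive loci of the table, and the other members apart from each other on chromosome 2. The lengths of their sequences in the table, introns included, were 2664, 1578, 1973 and 1394 bases in the order of the first sentence that names them. Members of 1 gene family can share reads in similar stretches, so a part of the reads of one member may belong to another.

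Together the 4 genes rose from 668 reads in the control to 7891 at 3 d. Their summed level was 11.8 CPM in C, 13.2 CPM at 1 d, 64.3 CPM at 2 d and 139 CPM at 3 d. The first day brought little change, with a log2 ratio of 0.16 (0.01 to 0.32), and the family was then up-regulated 5.46-fold at 2 d (log2 ratio 2.45, 2.33 to 2.57) and 11.8-fold at 3 d (log2 ratio 3.56, 3.44 to 3.67). From 2 d to 3 d alone the sum rose another 2.16-fold. No member was called at 1 d, when 5.6% of transcripts with reads in both libraries were up-regulated and 4.3% down-regulated. All 4 were up-regulated at 2 d against 19.2% of transcripts, and 3 of the 4 at 3 d against 20.2%. With edgeR TMM factors and DESeq2 size factors, other ways to scale the libraries, these shares are larger. All 4 were then up-regulated at 2 d beside 24.9% and 25.6% of loci with at least 10 reads. At 3 d all 4 were too, beside 30.6% and 32.8%. The median log2 ratio of the members was 0.11, 2.17 and 3.05 at 1, 2 and 3 d, beside the medians of all loci given above.

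**Figure D1:**
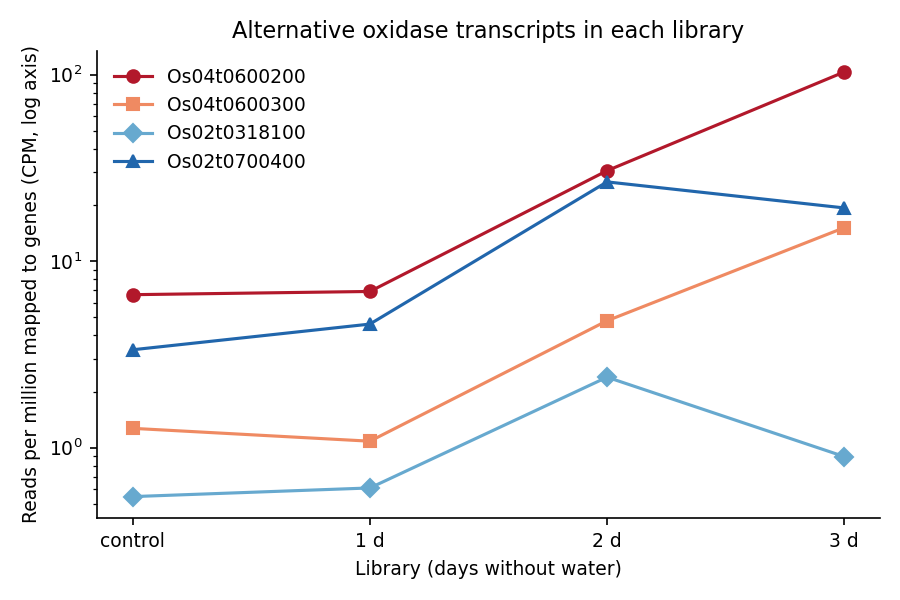
Level of each alternative oxidase transcript (CPM, log axis) in the 4 libraries, 1 point per library. The lines of the chromosome 4 genes run in parallel and climb from 1 d to 3 d, Os04t0600200 reaching 103 CPM, whereas both chromosome 2 genes are highest at 2 d in CPM (with DESeq2 size factors Os02t0700400 is higher at 3 d by 0.041 on the log2 scale).

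The most abundant member by reads was Os04t0600200. It had 375 reads in C, 362 at 1 d, 1843 at 2 d and 5882 at 3 d, or 6.61, 6.88, 30.6 and 103 CPM. The control and 1 d libraries were alike within counting error, with a log2 ratio of 0.06 (−0.15 to 0.27), and the level then climbed on each of the following days. It was up-regulated 4.62-fold at 2 d (log2 ratio 2.21, 2.05 to 2.37) and 15.6-fold at 3 d (log2 ratio 3.97, 3.82 to 4.12). At 3 d only 3.96% of the 30951 loci compared had a higher ratio, and the gene stood 4.83 above the median log2 ratio of all loci.

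Os04t0600300, the tandem neighbour of Os04t0600200, followed a like course at a lower level. It had 72, 57, 289 and 860 reads in C and at 1, 2 and 3 d, or 1.27, 1.08, 4.79 and 15.1 CPM. The change at 1 d was within counting error (log2 ratio −0.23, −0.76 to 0.29). The gene was up-regulated 3.77-fold at 2 d (log2 ratio 1.92, 1.54 to 2.31) and 11.9-fold at 3 d (log2 ratio 3.57, 3.23 to 3.94), and 5.12% of loci had a higher ratio at 3 d. The log2 ratios of the tandem genes could not be separated by counting error in any of the 5 comparisons made. Their difference was largest at 3 d, 0.39 in favour of Os04t0600200 (−0.01 to 0.78), and at 2 d it was 0.29 (−0.13 to 0.71).

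Os02t0700400 was the member with the largest change at 2 d. It had 190 reads in C, 242 at 1 d, 1605 at 2 d and 1098 at 3 d, or 3.35, 4.60, 26.6 and 19.3 CPM. It was also the only member whose 1 d interval lay above no change, at a log2 ratio of 0.46 (0.18 to 0.74), which was under the 2-fold call. The 2 d level was 7.94-fold that of the control (log2 ratio 2.99, 2.77 to 3.21), and 5.35% of loci had a higher ratio. At 3 d the gene was still up-regulated 5.76-fold (log2 ratio 2.53, 2.30 to 2.76).

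Os02t0318100 was the least abundant member in every library. It had 31, 32, 144 and 51 reads in C and at 1, 2 and 3 d, which are 0.546, 0.608, 2.39 and 0.896 CPM. Only the 2 d library stood out. There the gene was up-regulated 4.37-fold (log2 ratio 2.13, 1.56 to 2.74), and at 3 d its log2 ratio was 0.71 (0.04 to 1.41), with 24.5% of loci higher. This 3 d value was not called in CPM but passes 2-fold under both other ways of scaling the libraries, at 1.44 with edgeR TMM factors and 1.58 with DESeq2 size factors.

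The members moved further apart on the third day. From 1 d to 2 d all 4 were up-regulated (19.8% of transcripts were in CPM, and 25.7% and 26.3% of loci with TMM and DESeq2 factors), with log2 ratios of 2.15, 2.15, 1.97 and 2.53 for Os04t0600200, Os04t0600300, Os02t0318100 and Os02t0700400. From 2 d to 3 d the chromosome 4 genes were up-regulated again, with log2 ratios of 1.76 (1.68 to 1.83) for Os04t0600200 and 1.66 (1.46 to 1.85) for Os04t0600300, when 10.9% of transcripts were up-regulated and 30.5% down-regulated in CPM. That lean to falls depends on the scaling. Of loci with at least 10 reads, 17.6% were up- and 21.0% down-regulated with TMM factors, and 20.1% and 18.2% with DESeq2 size factors. Os02t0318100 was down-regulated over the same day, with a log2 ratio of −1.41 (−1.90 to −0.94) that is −1.02 with TMM factors and −0.91, short of the call, with DESeq2 size factors. Os02t0700400 moved by −0.46 (−0.58 to −0.35), against a median of −0.45 over all loci. Its direction over this day depended on the scaling, being −0.067 with TMM factors and 0.041 with DESeq2 size factors. Differences between members do not depend on the scaling. At 3 d against the control the ratio of Os04t0600200 was above that of Os02t0700400 by 1.44 (1.16 to 1.71) and above that of Os02t0318100 by 3.25 (2.54 to 3.94). Of the 6 pairs of members, 5 had an interval of the difference that left out 0 at 3 d against the control, compared with 3 at 2 d and 2 at 1 d. All such pairs at 1 d and 2 d held Os02t0700400. At 2 d the ratio of Os04t0600200 minus that of Os02t0700400 was −0.78 (−1.06 to −0.51), and for Os02t0318100 it was −0.86 (−1.48 to −0.21). These counts of pairs also depend on how many reads each member has.

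**Figure D2:**
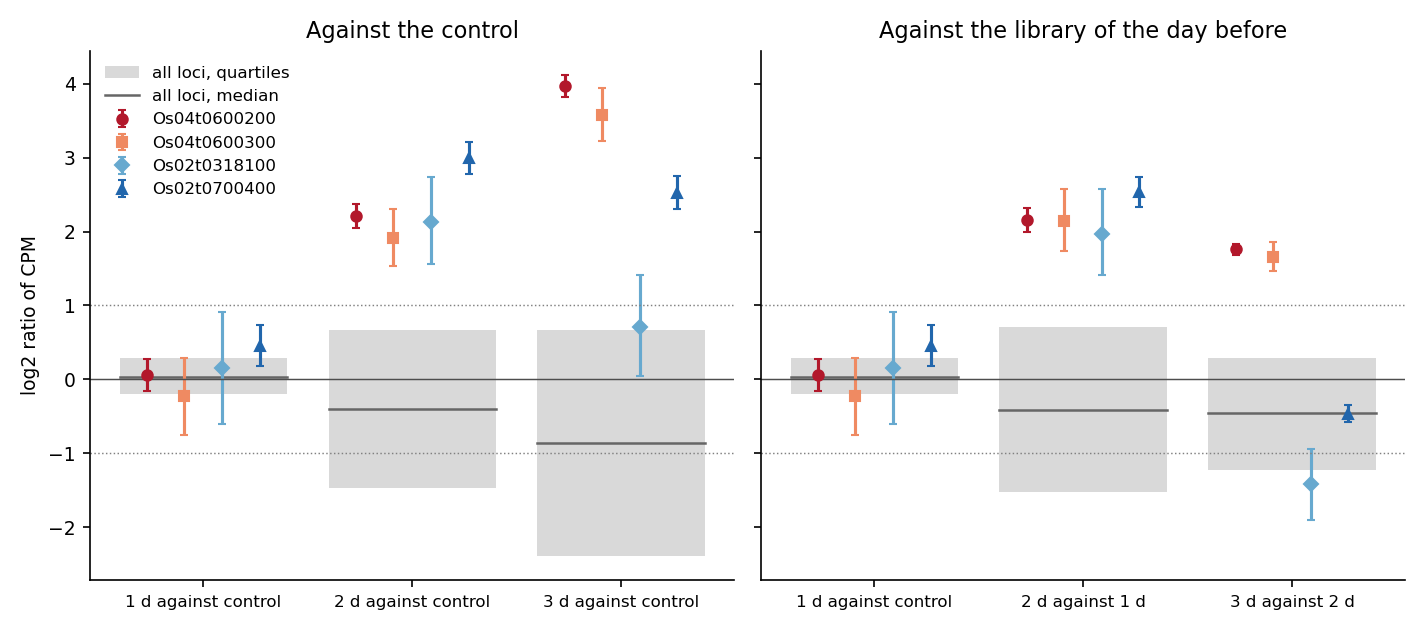
Log2 ratio of CPM of each member against the control (left) and against the library of the day before (right). Bars are exact 95% counting intervals, grey boxes the quartiles and grey lines the median of all loci with at least 10 reads, and dotted lines the 2-fold call. All 4 members lie above the upper quartile of all loci at 2 d, and from 2 d to 3 d the chromosome 4 genes lie near 1.7 while Os02t0700400 sits on the median of −0.45.

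The make-up of the family's reads followed. Os04t0600200 gave 56.1% (52.3 to 59.9) of the alternative oxidase reads in C, 52.2% at 1 d, 47.5% (45.9 to 49.1) at 2 d and 74.5% (73.6 to 75.5) at 3 d. The share of Os02t0700400 ran the other way, 28.4% in C, 34.9% at 1 d, 41.4% at 2 d and 13.9% (13.2 to 14.7) at 3 d. Os04t0600300 kept between 7.45% and 10.9%. Os02t0318100 fell from 4.64% (3.17 to 6.52) in C to 0.646% (0.482 to 0.849) at 3 d. The tandem genes together gave 66.9% of the family's reads in C, 54.9% at 2 d and 85.4% at 3 d.

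**Figure D3:**
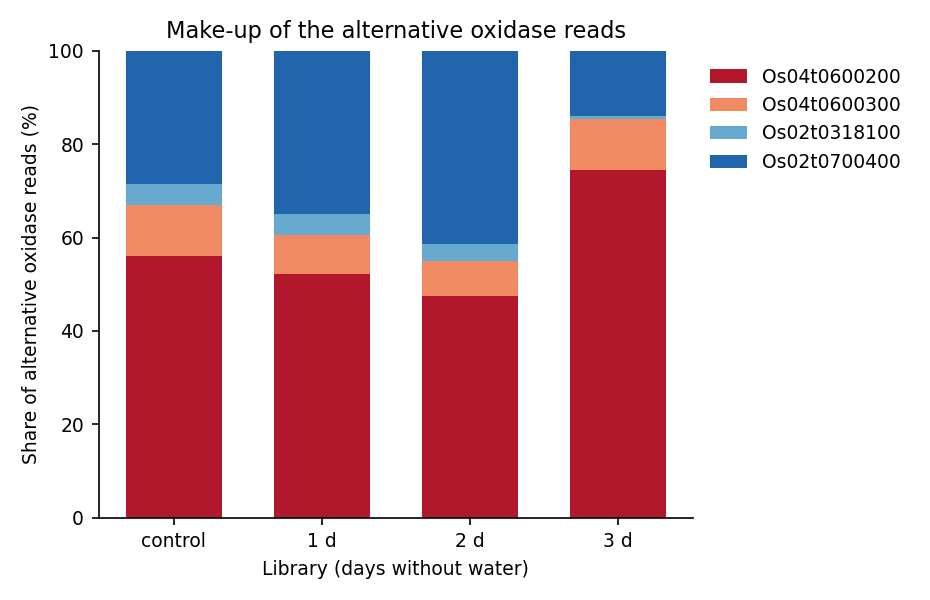
Share of each member in the alternative oxidase reads of each library, in percent, stacked to 100. The chromosome 2 genes (blue) grow to 45.1% at 2 d and shrink to 14.6% at 3 d.

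Per length the order of the members differed. In CPM per kb of gene sequence, Os04t0600200 and Os02t0700400 could not be separated in the control, at 2.48 (2.24 to 2.75) and 2.40 (2.07 to 2.77). Os02t0700400 led at 2 d with 19.1 (18.2 to 20.04) CPM per kb against 11.5 (11.0 to 12.0), and Os04t0600200 led at 3 d with 38.8 (37.8 to 39.8) against 13.8 (13.0 to 14.7). At 1 d the lead of Os02t0700400, 3.30 (2.90 to 3.74) against 2.58 (2.32 to 2.86), was narrow. Os04t0600300 came below these in each library, at 0.804 CPM per kb in C and 9.58 at 3 d, and Os02t0318100 lowest, at 0.277 in C, 1.21 at 2 d and 0.454 at 3 d, with intervals apart from each other and from those above. The lengths count introns, and spliced lengths were not used here.

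Only 6 loci carried the term for respiratory gaseous exchange, the 4 members and a pair of relatives. The pair were described as similar to a plastid terminal oxidase and to an alternative oxidase. The relatives differed from each other and from the members. Os04t0668900 is described as similar to the plastid terminal oxidase, the related enzyme that oxidises plastoquinol in chloroplasts and serves in carotenoid synthesis. It had 2075, 1993, 12472 and 6758 reads in C and at 1, 2 and 3 d, and was up-regulated 5.65-fold at 2 d (log2 ratio 2.50, 2.43 to 2.57) and 3.25-fold at 3 d (log2 ratio 1.70, 1.63 to 1.77). Os03t0847500, described as similar to an alternative oxidase, moved the other way. It had 2592, 2425, 1711 and 580 reads, a log2 ratio of −0.69 (−0.78 to −0.60) at 2 d, and was down-regulated at 3 d (log2 ratio −2.16, −2.30 to −2.03). In the control both stood above every member per length, at 12.2 CPM per kb for Os04t0668900 and 11.5 for Os03t0847500. At 3 d Os04t0600200 (38.8) and Os04t0668900 (39.5) were close and Os03t0847500 had come down to 2.56 CPM per kb.

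**Figure D4:**
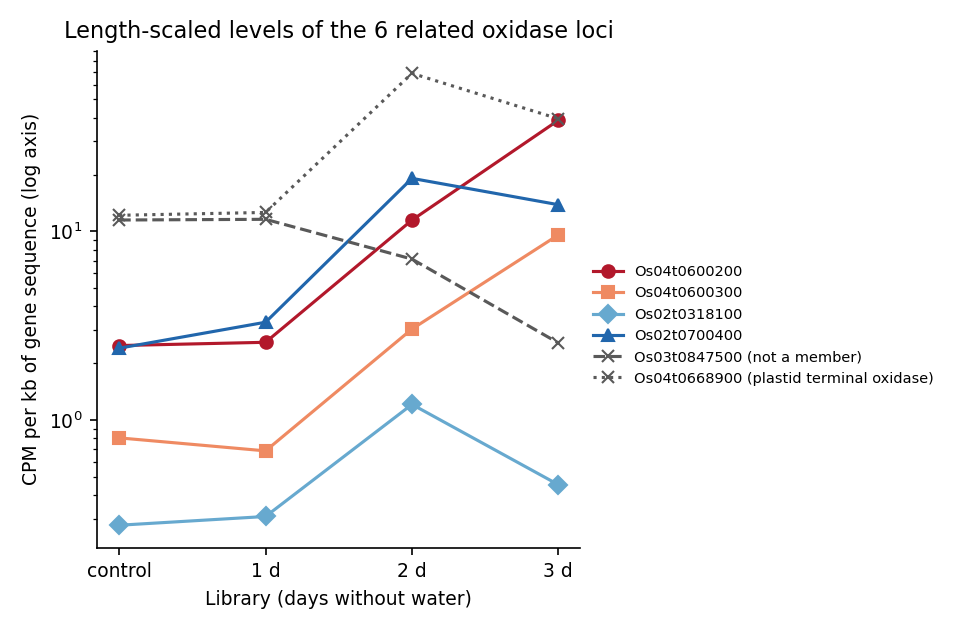
Level per length (CPM per kb of gene sequence, log axis) of the 4 members and of the 2 other loci that carry the same gene ontology term, 1 point per library. Os03t0847500 (dashed) starts at 11.5, above every member, and ends at 2.56, below every member except Os02t0318100 (0.454 at 3 d). The plastid terminal oxidase (dotted) is highest at 2 d with 68.8.

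The other genes of mitochondrial electron transport were taken from word lists of the annotation, and the median log2 ratio of each list at 3 d was below that of the alternative oxidases. Among all 30951 loci, 20.8% were up-regulated and 47.4% down-regulated at 3 d. Those shares depend on the scaling and were 30.6% and 34.8% with TMM factors and 32.8% and 32.5% with DESeq2 size factors, which raise every log2 ratio at 3 d by 0.73 and 0.87.

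Alternative oxidase draws on the ubiquinol that several dehydrogenases fill. Of 6 type II NAD(P)H dehydrogenases and uncoupling carriers, which like alternative oxidase let respiration run with less or no proton gradient, 2 were up- and 2 down-regulated at 3 d (median log2 ratio −0.51). Both that were up-regulated were dehydrogenases. Os05t0331200, an external rotenone-insensitive NADPH dehydrogenase, had 92, 90, 501 and 262 reads (log2 ratio 1.51, 1.16 to 1.86). Os01t0830100, named after an Arabidopsis alternative NAD(P)H dehydrogenase, had 1500, 1423, 4724 and 3287 reads (log2 ratio 1.13, 1.04 to 1.22). A further dehydrogenase, Os06t0684000, has the same description as Os05t0331200 but was not called. It had 4196, 2935, 3733 and 2511 reads (log2 ratio −0.75, −0.82 to −0.67, at 3 d in CPM). Both that were down-regulated were uncoupling carriers. Os08t0478700 had 1975, 832, 3654 and 414 reads, with log2 ratios of −1.14 at 1 d, 0.80 at 2 d and −2.26 (−2.42 to −2.11) at 3 d. Os01t0978000 had 944, 1120, 878 and 256 reads (−1.89, −2.09 to −1.69, at 3 d). The uncoupling protein Os11t0707800 was not called (−0.28, −0.41 to −0.15).

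Complex I subunits, the proton-pumping entry of NADH electrons, were mostly not called, with 2 up- and 4 down-regulated of 21 (median −0.28), or 3 and 2 with DESeq2 size factors. The deepest fall in that list was Os01t0882500, from 4006 to 20 reads (−7.65, −8.36 to −7.02), whose annotation as subunit N of NADH dehydrogenase I also fits the chloroplast complex of that name. Other descriptions in the list, such as NADH dehydrogenase subunit K, do not name the organelle either. Of 7 loci found by the words for complex II, the succinate dehydrogenase, 3 were up- and 1 down-regulated (median 0.77), or 4 and 0 with DESeq2 size factors. One of the 3 had 1 read in C and 24 at 3 d, and with at least 100 reads over the 4 libraries 2 were up-regulated. Another of the 3, Os02t0134400 (log2 ratio 1.01), is described only by a flavoprotein domain shared by fumarate reductase and succinate dehydrogenase. Os07t0134800, described as similar to the flavoprotein subunit of complex II, stood at 0.77 and was not called in CPM. The iron-sulphur subunit Os08t0120000 had 2816, 2704, 4959 and 6234 reads (log2 ratio 1.14, 1.08 to 1.21). The cytochrome b subunit family gene Os02t0121800 fell (−1.31, −1.45 to −1.17). Of 12 ubiquinone synthesis loci 1 was up- and 7 down-regulated (median −1.51), or 2 and 5 with DESeq2 size factors. The words of this list also find relatives in other prenylquinone pathways, among them Os04t0507800, a UbiE/COQ5 methyltransferase with 753 reads in C and 16 at 3 d (−5.56, −6.38 to −4.85).

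In the cytochrome pathway that alternative oxidase bypasses, 2 of 19 complex III subunits were up- and 4 down-regulated (median −0.42), and 2 of 15 loci for cytochrome c and complex IV were up- and 5 down-regulated (median −0.87, as for all loci). These counts rest on the scaling, and with DESeq2 size factors complex III had 7 up and 2 down and cytochrome c with complex IV 4 up and 3 down. The summed level of the latter list moved from 298 CPM in C to 381 CPM at 3 d, beside the rise from 11.8 to 139 CPM of the alternative oxidases. That rise came from a single locus, and the other 15 loci together went from 245 to 148 CPM. This cytochrome c gene, Os05t0420600, the mobile carrier between complexes III and IV, had 3010, 2230, 11794 and 13266 reads (log2 ratio 2.14, 2.08 to 2.19). Among the other 15, Os02t0814400, described only by a monohaem cytochrome c domain, had 2247, 2068, 407 and 113 reads (−4.32, −4.60 to −4.05). In C these were 2247 of the 13901 reads of the 15 loci, so a part of their summed fall rests on this locus. Of 14 mitochondrial ATP synthase subunits none was up- and 2 were down-regulated (median −0.25), with 3 up and 0 down under DESeq2 size factors.

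Other membrane proteins of mitochondria moved in both directions. Of 9 prohibitin, stomatin-like and BCS1 loci 3 were up- and 2 down-regulated (median −0.22). Os05t0588900, similar to BCS1, the chaperone that in yeast assembles complex III, had 101, 91, 2041 and 1855 reads (log2 ratio 4.19, 3.90 to 4.50). Os02t0580500, described as similar to prohibitin, had 193, 165, 1080 and 1628 reads (3.07, 2.86 to 3.29). Os07t0262200, with the same description, was down-regulated (−1.82, −1.94 to −1.70). That call is lost with DESeq2 size factors, under which no locus of the list is down-regulated. Of 44 mitochondrial carriers 11 were up- and 14 down-regulated (median −0.03), and with DESeq2 size factors 20 and 9. Os01t0225000, a carrier-domain protein, had 37, 100, 5385 and 5622 reads (7.24, 6.78 to 7.75). Os03t0213800 of the same list went from 541 to 9 reads (−5.91, −7.05 to −4.98).

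**Figure D5:**
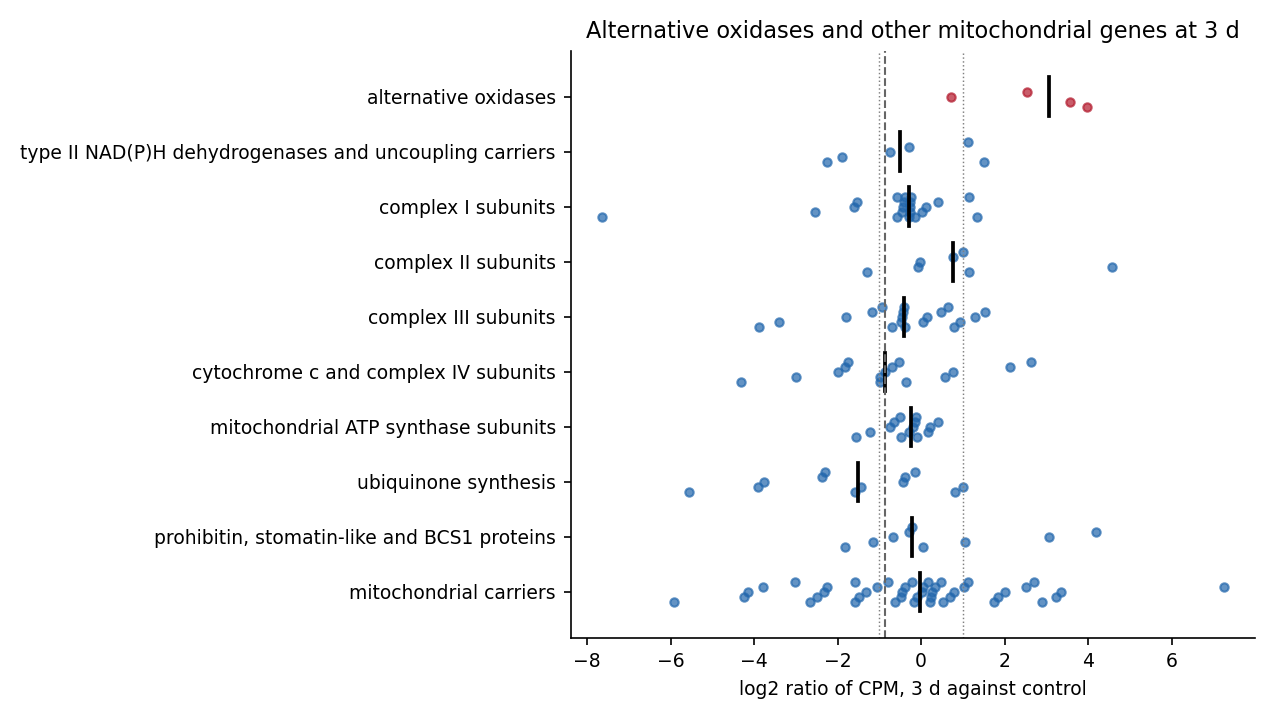
Log2 ratio of CPM at 3 d against the control for the alternative oxidases (red) and for each measured locus of 9 lists of mitochondrial genes (blue, spread vertically for legibility), with the median of each as a black bar. The dashed line is the median of all loci (−0.86) and the dotted lines the 2-fold call. The median of the alternative oxidases is 3.05, and the medians of the lists lie between −1.51 and 0.77.

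The loci next to the members differed in their course. Os04t0600400, an aspartic peptidase-domain gene and the next locus after the tandem genes, had 296, 303, 132 and 35 reads (log2 ratio −3.08 at 3 d). On the other side, Os04t0600100 had 16, 33, 36 and 95 reads and was up-regulated at 3 d (2.57). Beside Os02t0700400, the log2 ratio at 3 d was −1.26 for the noncoding transcript Os02t0700350 and −0.82 for the transporter gene Os02t0700500. Beside Os02t0318100 it was 0.28 for Os02t0317800 and −1.99 for Os02t0318200.

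The genes with the most similar course were sought by the root mean square difference of the 3 log2 ratios to the control over 21810 loci with reads in all 4 libraries and a mean of at least 100 reads. Of the 3 nearest to Os04t0600200, Os06t0700550 (difference 0.069, with 79, 78, 404 and 1328 reads), Os02t0823900 and Os07t0576550, all were hypothetical genes. Nearest to Os04t0600300 was Os01t0805400, a UDP-glycosyltransferase family gene, with 264, 208, 1027 and 3204 reads (difference 0.030), followed by Os01t0132500, of unknown function, and Os01t0185400, a WD40 repeat protein with 1889, 1697, 8003 and 22566 reads. Nearest to Os02t0700400 were Os12t0595900, Os04t0583000 and Os10t0465950, again hypothetical. Among the members, Os04t0600300 came 55th in closeness to Os04t0600200 (difference 0.33) and Os02t0700400 came 1004th (0.97). Os02t0318100 was left out for its low mean of 64.5 reads. With 4 libraries and 1 shared control, such closeness describes these values only.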

How the data were processed

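The deposited gene table holds a read count per transcript and library, which the authors made by trimming single-end reads, removing duplicates and mapping them to the gene sequences of the IRGSP-1.0 rice annotation. Whether strand was used in counting is not given in the sources used here. The authors' own normalized values and log2 ratios to the control, also in the table, were not used, and 0 columns belonged to other samples.

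Transcript counts were summed per locus, scaled to the library's total of gene reads (CPM) and compared as log2 ratios where both libraries had reads. Background shares are of transcripts, or of loci with at least 10 reads over the 4 libraries. Intervals are exact 95% Clopper-Pearson intervals of the share of the 2 counts, exact Poisson intervals for a level, and conditional odds ratio intervals for differences between members. Reads are not independent molecules, so they cover counting error only. The scripts were tested on artificial counts with known answers.

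The members and the 13 word lists of the annotation were chosen with earlier results of these data known, and loci that the words found in error were left out after their descriptions were read. Loci that could be named were the members, other loci with alternative oxidase words, up to 3 loci per list that changed most at 3 d in either direction and had a mean of at least 100 reads, the 3 loci nearest in pattern, and Dip1 and RbcS1. Not all of them are printed, and none from the complex III and ATP synthase lists is. Os01t0830100, Os06t0684000, Os11t0707800, Os07t0134800, Os04t0537900, Os11t0167800 and the neighbouring loci were added after their values were seen. Promoters, protein sequences and coordinates of the members were not analysed here. Alternatives were no scaling, edgeR 4.0.16 TMM factors, DESeq2 1.42.0 size factors (R 4.3.3), 1 read added to both counts, the row with the most reads per locus, other read minimums, the uncorrected lists and, after seeing the data, list sums without the locus that carries most reads. Statistics were computed in scipy 1.17.1, tables handled in pandas 2.3.3 over numpy 2.4.6, and plots drawn in matplotlib 3.10.9, all under Python 3.11.15.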

Additional observations from a re-analysis of the deposited data

How the results depend on the processing

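Each value for the members and their sum was compared under each alternative that applied to it. In 57 of these comparisons it stayed within its counting interval, in 24 it moved beyond it, and none of the called values changed sign. With TMM factors and with DESeq2 size factors in that order, the log2 ratio at 2 d became 2.54 and 2.57 for Os04t0600200, 3.32 and 3.35 for Os02t0700400 and 2.78 and 2.81 for the sum. At 3 d it became 4.69 and 4.83 for Os04t0600200, 4.30 and 4.44 for Os04t0600300, 1.44 and 1.58 for Os02t0318100, 3.25 and 3.39 for Os02t0700400, and 4.29 and 4.42 for the sum. For 3 d against 2 d, an alternative chosen after seeing the data, it became 2.16 and 2.26 for Os04t0600200 (1.67 with no scaling), 2.05 and 2.16 for Os04t0600300, −0.067 and 0.041 for Os02t0700400, and −0.91 with DESeq2 size factors for Os02t0318100. These scalings assume that the middle of the genes did not change, and CPM that the total did not. One read added to both counts moved no value beyond its interval, and the row with the most reads gave the values of the sum by construction, since each member has 1 row. The comparisons with that row are among the 57 and could not have come out otherwise. For the lists and the background, 89 comparisons were within 1.5 times the value given and 25 were not. By the largest absolute difference, at least 2 of the 3 nearest genes stayed for each of the 3 members compared. Depth limits Os02t0318100 most, with 31 reads in the control. No paired analysis was possible because there was 1 library per condition.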
